A study of Mus musculus with 6 samples.

Results

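The S100 proteins are a family of small calcium sensors, each built around a pair of EF-hand calcium-binding loops. Of the 54532 genes in the deposited count table, 9 were followed here by name: S100a1, S100a4, S100a6, S100a8, S100a9, S100a10, S100a11, S100a13 and S100a16. The family was picked because S100a6 was much lower in SMEK1 knockdown than in WT cells, so the difference between the groups chose it. Values of these 9 genes, and which of them lay past the threshold of the fit over all genes, are therefore given as a description and support nothing.

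Most S100 proteins form dimers, open a binding surface when calcium rises, and dock onto partner proteins such as annexins, cytoskeletal proteins and enzymes. Some are also released from cells, where they act on receptors such as RAGE and TLR4. In the brain, S100b is best known from astrocytes, and S100a8 and S100a9 from neutrophils and activated myeloid cells. In the mouse most S100 genes lie close together on chromosome 3, in a region known as the epidermal differentiation complex.

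The samples were cultures of BV2, an immortalised mouse microglial cell line, with 3 RNA-seq libraries labelled SMEK1 knockdown and 3 labelled WT, each group with replicates A, B and C. SMEK1 is the product of Ppp4r3a, a regulatory subunit of protein phosphatase 4. All cells were grown in the same serum-containing DMEM, and no further treatment is given. The labels state neither the knockdown construct, nor whether the cells were a clone, nor whether WT cells received a control construct. The design text names the derivatives LV1 and NL together as knockdown lines, whereas the genotype labels give the NL samples as WT, which is followed here. Separate cultures are not mentioned for the replicates, and a p-value here reflects library-to-library spread that may be only technical.

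Library totals were 18627425 to 21131557 counts in knockdown cells and 18036591 to 18708438 counts in WT cells. Ppp4r3a had 48, 122 and 94 counts in knockdown libraries, against 335, 227 and 260 in WT libraries. Its level was 4.06 ± 1.47 CPM (counts-per-million of the library size scaled by TMM) in knockdown cells and 15.6 ± 2.29 CPM in WT cells (SD, n = 3 each). The log2 ratio of knockdown over WT was -1.94 (standard error, SE, 0.24, edgeR quasi-likelihood adjusted p = 8.22e-05), and the groups did not overlap. On the log2(FPKM + 1) scale, which compresses low genes, it was -0.74. Of the microglial markers, Csf1r, the receptor of colony-stimulating factor, averaged 259.7 ± 2.5 CPM in knockdown cells and 430.9 ± 11.1 CPM in WT cells. Itgam, an integrin chain of myeloid cells, averaged 27.0 and 37.5 CPM in knockdown and WT cells. Tmem119, a microglial surface protein, averaged 19.3 and 9.65 CPM in knockdown and WT cells. The markers thus did not share a direction. The homeostatic markers Cx3cr1 (0.46 CPM in knockdown and 0.224 CPM in WT cells) and P2ry12 (0 and 0.0559 CPM in knockdown and WT cells) were at or near 0. Over the 13 microglia and macrophage markers, 3 were higher and 5 lower of 11 tested. Over all genes tested, 20.5% were higher and 19.6% lower. The summed level of the 13 markers was 3669.5 to 4023.7 CPM in knockdown and 4059.9 to 4483.9 CPM in WT libraries. The part of this marker difference in the S100 values was not tested.

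Promoter windows of 4 members are shown, since these genes cover the largest fold change (S100a6), members with moderate ones (S100a11, S100a1) and a member whose counts overlapped (S100a4). The windows run from 250 bases before to 50 bases after the RefSeq start (GRCm38.p6) and are written 5′ to 3′ on the gene's strand. Capitals mark matches to the motifs searched.
S100a6: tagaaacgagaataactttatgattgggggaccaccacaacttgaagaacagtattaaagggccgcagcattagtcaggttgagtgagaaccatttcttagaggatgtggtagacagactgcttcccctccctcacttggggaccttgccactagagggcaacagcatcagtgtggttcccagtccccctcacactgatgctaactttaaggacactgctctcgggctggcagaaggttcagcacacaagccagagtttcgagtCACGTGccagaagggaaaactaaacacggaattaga
S100a11: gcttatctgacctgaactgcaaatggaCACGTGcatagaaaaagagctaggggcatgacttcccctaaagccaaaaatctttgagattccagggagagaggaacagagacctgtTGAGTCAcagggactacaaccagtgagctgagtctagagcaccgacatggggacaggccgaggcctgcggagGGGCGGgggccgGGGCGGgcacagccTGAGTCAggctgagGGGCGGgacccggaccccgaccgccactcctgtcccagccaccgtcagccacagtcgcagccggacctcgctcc
S100a1: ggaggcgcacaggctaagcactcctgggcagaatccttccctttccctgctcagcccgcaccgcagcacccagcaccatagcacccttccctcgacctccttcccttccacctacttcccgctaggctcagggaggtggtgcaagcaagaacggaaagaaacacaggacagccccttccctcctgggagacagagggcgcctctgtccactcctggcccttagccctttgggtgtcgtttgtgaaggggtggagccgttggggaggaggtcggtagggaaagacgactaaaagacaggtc
S100a4: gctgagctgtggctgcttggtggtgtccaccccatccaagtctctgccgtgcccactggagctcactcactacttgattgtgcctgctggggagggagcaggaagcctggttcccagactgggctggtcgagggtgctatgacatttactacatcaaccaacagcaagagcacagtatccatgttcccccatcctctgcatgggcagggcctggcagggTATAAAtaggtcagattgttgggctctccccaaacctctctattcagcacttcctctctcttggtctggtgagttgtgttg
The windows lie at chr3:90612644-90612943 (+ strand) for S100a6, chr3:93520246-93520545 (+) for S100a11, chr3:90514281-90514580 (- strand) for S100a1 and chr3:90603520-90603819 (+) for S100a4.

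The 4 promoters differed in composition. The S100a6 window had a GC content of 49.3% with 6 CpG sites, and the only motif match was an E-box (CACGTG) at +15 to +20 from the start. The S100a11 window had 61.7% GC and 15 CpG sites, with 3 GC boxes (GGGCGG) at -64 to -59, -52 to -47 and -24 to -19. It also held 2 AP-1 motifs (TGANTCA) at -136 to -130 and -38 to -32, and an E-box at -223 to -218. The S100a1 window had 61.0% GC and 11 CpG sites and no match. S100a4 had 55.3% GC, 2 CpG sites and a TATA box (TATAAA) at -31 to -26. Over all 32851 RefSeq mouse promoter windows, the median GC content was 52.7% and the median number of CpG sites was 7.

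The share of all promoters that hold each motif gives the background. Searched on both strands, the E-box was present in 7.15% of all windows, the AP-1 motif in 7.81%, the GC box in 35.7% and the TATA box in 13.6%. Of the 9 members, 8 had 9 windows, since S100a16 has a pair. S100a10 had no window, so its promoter was not searched. TATAAA occurred in the windows of S100a4, S100a8 and S100a9, and the antioxidant response element (TGACNNNGC, 12.4% of all windows) in 1 S100a16 window. The other S100a16 window held a GC box at -30 to -25 and an AP-1 motif at -192 to -186. S100a9 also had a GC box, at -223 to -218. Of the 9 member windows, 3 thus held a GC box, 2 an AP-1 motif and 2 an E-box. No member window held a cAMP response element (TGACGTCA, 1.79%), an NF-kappaB motif (8.46%), an interferon-stimulated response element (3.44%) or a GAS element (TTCNNNGAA, 8.3%). The S100a1 and S100a13 genes point away from each other with 42 bases between their spans, and their windows share 204 bases on opposite strands. Matches are a description of letters and not of binding.

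S100a6 was the member with the largest fold change. It encodes calcyclin, which binds annexins and the ubiquitin ligase adaptor CacyBP, and lies at chr3:90612882-90624181 on the + strand. It had 1904, 1993 and 2156 counts in knockdown libraries A, B and C, against 10173, 10319 and 9834 counts in WT libraries. On the TMM-scaled CPM used throughout, these were 99.5, 88.5 and 97.4 CPM in knockdown libraries, against 549.1, 615.9 and 578.8 CPM in WT libraries. Every knockdown library was far below every WT library, and the spread within either group was small beside the gap. The mean of 95.1 ± 5.81 CPM in knockdown cells was 16.4% of the 581.2 ± 33.5 CPM in WT cells (SD, n = 3 each), which is 6.11-fold lower, with a log2 fold change of -2.61 (SE 0.09). By fold change it was number 69 of the 12269 genes tested, counted from the largest fall.

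S100a10 and S100a11, also annexin-binding, lie together, 2942.2 and 2907.6 kb from the start of S100a6. S100a10 (chr3:93555080-93564643, + strand) encodes p11, which has lost calcium binding and forms a stable complex with annexin A2. It had 4501, 5052 and 5783 counts in knockdown libraries and 7120, 7491 and 6891 in WT libraries. The levels were 235.2, 224.5 and 261.2 CPM in knockdown libraries, against 384.3, 447.1 and 405.6 CPM in WT libraries, with no overlap. The knockdown mean of 240.3 ± 18.9 CPM was 58.3% of the WT mean of 412.3 ± 31.9 CPM (log2 fold change -0.78, SE 0.09).

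S100a11 (chr3:93520488-93526287, + strand) encodes calgizzarin, a partner of annexin A1. It had 2064, 1989 and 2159 counts in knockdown libraries and 3053, 3461 and 3240 in WT libraries. Its levels were 107.9, 88.4 and 97.5 CPM in knockdown libraries, against 164.8, 206.6 and 190.7 CPM in WT libraries. WT library A was the lowest of its group and still lay above all knockdown libraries. The knockdown mean of 97.9 ± 9.75 CPM was 52.3% of the WT mean of 187.3 ± 21.1 CPM (log2 fold change -0.94, SE 0.10).

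Like S100a10 and S100a11, the neighbours S100a1 and S100a13 were lower, by less than S100a6. S100a1 (chr3:90511034-90514392, - strand) is best known from heart muscle, where its protein acts on calcium release and uptake. It had 2149, 2195 and 2574 counts in knockdown libraries and 4228, 4190 and 3850 in WT libraries. Scaled, these were 112.3, 97.5 and 116.3 CPM in knockdown libraries, against 228.2, 250.1 and 226.6 CPM in WT libraries, and the groups did not overlap. The knockdown mean of 108.7 ± 9.88 CPM was 46.3% of the WT mean of 235.0 ± 13.1 CPM (log2 fold change -1.11, SE 0.09).

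S100a13 (chr3:90514435-90524581, + strand) encodes a protein involved in the unconventional release of FGF1 and interleukin-1 alpha. It had 1001, 1161 and 1260 counts in knockdown libraries and 1654, 1814 and 1567 in WT libraries. The levels were 52.3, 51.6 and 56.9 CPM in knockdown libraries, against 89.3, 108.3 and 92.2 CPM in WT libraries, again without overlap. The knockdown mean of 53.6 ± 2.9 CPM was 55.5% of the WT mean of 96.6 ± 10.2 CPM (log2 fold change -0.85, SE 0.09). The labels do not say whether counting used strand, but the annotated spans of S100a1 and S100a13 do not overlap.

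**Figure D1:**
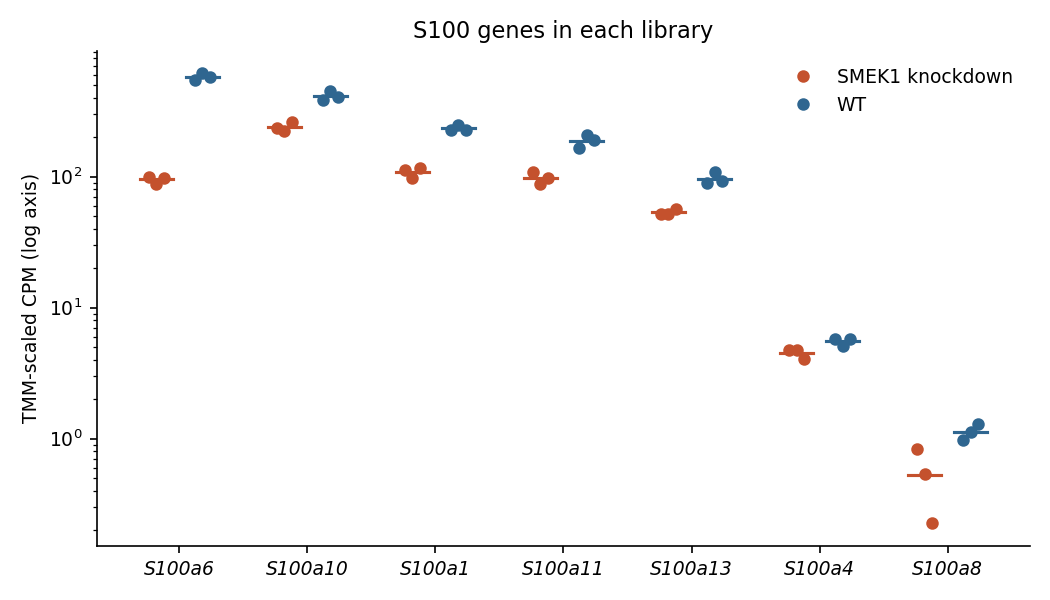
Level of each detected S100 gene in every library, as TMM-scaled CPM on a log axis, with SMEK1 knockdown left of WT; points are libraries and lines are group means. The 3 knockdown libraries of S100a6 sit between 88.5 and 99.5 CPM, and the WT libraries between 549.1 and 615.9 CPM.

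S100a4 and S100a8 were scarce. S100a4 (chr3:90603771-90606045, + strand) encodes a protein that binds non-muscle myosin and is known for its part in cell motility. It had 91, 106 and 90 counts in knockdown libraries and 107, 85 and 97 in WT libraries, so the raw counts overlapped. After scaling it had 4.76, 4.71 and 4.07 CPM in knockdown libraries, against 5.78, 5.07 and 5.71 CPM in WT libraries, which do not overlap. The knockdown mean of 4.51 ± 0.386 CPM was 81.7% of the WT mean of 5.52 ± 0.388 CPM, and the log2 fold change of -0.29 (SE 0.19) was not past the threshold. A predicted gene on the same strand, Gm42674, overlaps S100a4 and had 0 counts in all libraries.

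S100a8 (chr3:90668978-90670035, + strand), which with S100a9 makes up calprotectin, had 16, 12 and 5 counts in knockdown libraries and 18, 19 and 22 in WT libraries. These were 0.836, 0.533 and 0.226 CPM in knockdown libraries, against 0.972, 1.13 and 1.29 CPM in WT libraries. The groups did not overlap, but knockdown library A lay close to WT library A. The knockdown mean of 0.532 ± 0.305 CPM was 46.9% of the WT mean of 1.13 ± 0.162 CPM, with a log2 fold change of -1.10 (SE 0.43) that was not past the threshold. It passed the filter on low counts through its WT libraries, and counts this low give an imprecise fold.

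S100a9 and S100a16 had 0 counts in all 6 libraries. A count of 0 allows up to 3 counts over a group, which is 0.047 CPM in knockdown and 0.0574 CPM in WT cells, as counting error only. Neither could be tested. The neutrophil markers Ly6g, Ngp, Retnlg and Stfa2 were also at 0, and the 11 neutrophil markers summed to 11.4 to 12.6 CPM in knockdown and 8.83 to 11.4 CPM in WT libraries. Nearly all of that was Csf3r, which averaged 11.3 and 9.45 CPM in knockdown and WT cells and which monocytes express as well.

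Of the 9 members, 7 passed the filter, 5 were lower past an adjusted p of 0.05 and 0 were higher. Over all 12269 genes tested, 40.1% were called by the same rule, 19.6% lower and 20.5% higher. The scaled levels of all 7 did not overlap between groups, where 50.9% of all genes tested did not overlap and 24.3% were lower without overlap. The median log2 fold change of the 7 was -0.94, against 0.01 over all genes tested. S100a6 and S100a1 were called and at least 2-fold lower, as were 4.16% of all genes tested. The family was chosen on this contrast, so nothing is read from these counts.

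**Figure D2:**
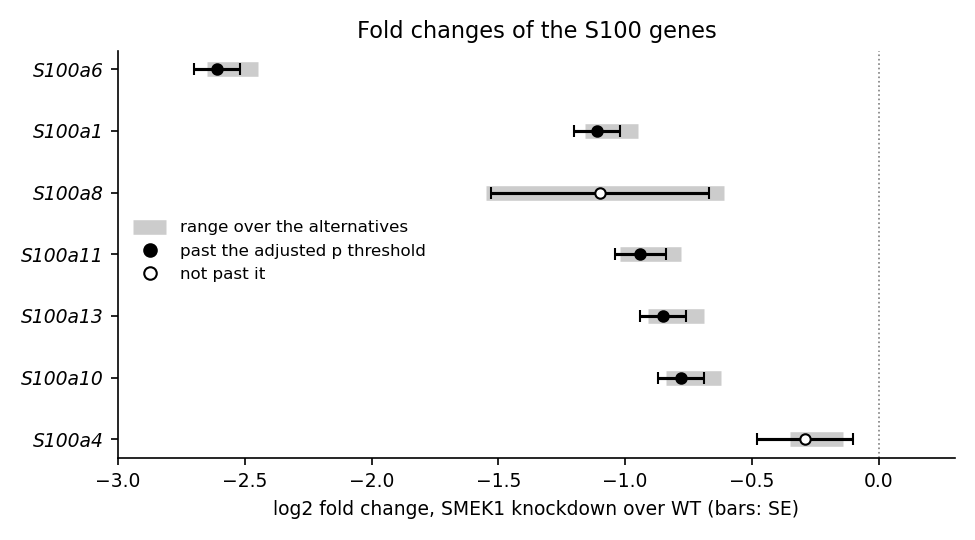
Log2 fold change of SMEK1 knockdown over WT for the 7 tested S100 genes, with SE bars. S100a6 stands at -2.61, the other 4 genes past the threshold lie between -1.11 and -0.78, and S100a4 and S100a8 were not past it.

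The summed level of the family was 612.7, 555.7 and 633.7 CPM in knockdown libraries, against 1422.3, 1634.0 and 1500.9 CPM in WT libraries. The make-up of that sum differed as well. S100a6 supplied 16.2, 15.9 and 15.4% of the members' counts in knockdown libraries, against 38.6, 37.7 and 38.6% in WT libraries. S100a10 supplied 38.4, 40.4 and 41.2% in knockdown libraries, against 27.0, 27.4 and 27.0% in WT libraries, so it replaced S100a6 as the main source. Within a library, and so without any scaling between libraries, S100a6 had 0.423, 0.394 and 0.373 counts per S100a10 count in knockdown cells, against 1.43, 1.38 and 1.43 in WT cells. These counts are not corrected for gene length.

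Per length, the order of the members also differed between the groups. As deposited FPKM (fragments per kilobase per-million), S100a6 was the highest member in every WT library, at 423.9 ± 23.7, and only the fifth in every knockdown library, at 68.9 ± 5.2 (SD, n = 3). In knockdown cells, S100a10 averaged 196.4 ± 16.7 FPKM, S100a11 189.9 ± 21.9 and S100a1 155.2 ± 15.9. S100a10 and S100a11 overlapped there, while S100a1, at 136.9 to 166.1 FPKM, lay just below the lowest S100a11 library at 168.4 FPKM. S100a13 (70.3 to 78.9 FPKM) and S100a6 (63.1 to 73.1 FPKM) overlapped at a lower level. S100a4 followed at 7.64 ± 0.665 FPKM and S100a8 at 0.76 ± 0.444 FPKM.

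In WT cells, S100a6 (401.4 to 448.6 FPKM) was followed by S100a11 (322.3 to 402.5 FPKM), whose upper end just overlapped it. S100a10 averaged 339.1 ± 25.7 FPKM and S100a1 337.5 ± 18.5 FPKM, and these overlapped with S100a11 and with each other. S100a13 was clearly below them at 134.7 ± 14.1 FPKM, above S100a4 at 9.42 ± 0.671 FPKM and S100a8 at 1.63 ± 0.23 FPKM.

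The order depends on the length used. The deposited gene lengths, 1367 bases for S100a6 and 1212 for S100a10, count all annotated exons, among them those of an S100a6 transcript annotated for nonsense-mediated decay that runs on to the gene's annotated end. S100a6 has principal transcripts of 731 and 464 bases, and S100a10 of 685 and 477 bases. The first by name was used, 731 bases for S100a6 and 685 for S100a10, and the order by the shorter ones was not computed. Per length of that transcript, S100a6 had 129.0 ± 9.78 fragments per kilobase per-million in knockdown cells and 792.6 ± 44.2 in WT cells. This scale was a choice made after seeing the data. On that scale S100a6 was the fourth in every knockdown library and the highest in every WT library. S100a10 had 347.4 ± 29.6 in knockdown cells, where it was the highest, and 600.0 ± 45.5 in WT cells, where it came next to S100a6.

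**Figure D3:**
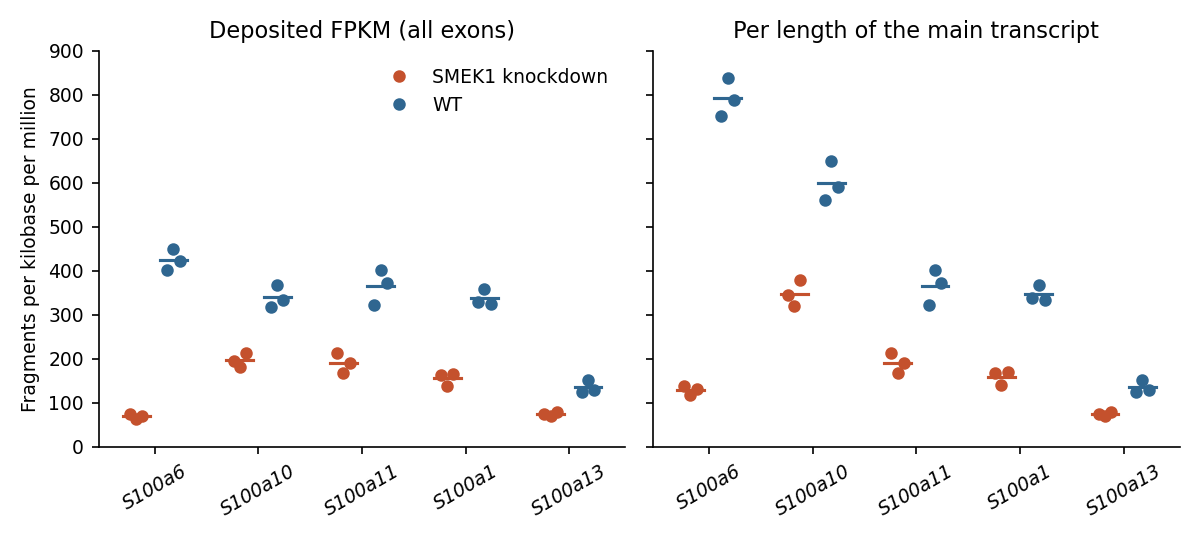
Levels of the 5 abundant S100 genes in fragments per kilobase per-million, with SMEK1 knockdown left of WT. The left panel has the deposited FPKM, and the right panel the level per length of the first principal transcript by name. Points are libraries and lines are means. S100a6 is the highest gene in WT cells in either panel, and lies below S100a10, S100a11 and S100a1 in knockdown cells.

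The 5 genes whose profiles over the 6 libraries were most like that of S100a6 were Oasl2, Epsti1, Oas3, Lgals9 and H2-T23, among 8595 genes averaging 5 CPM or more. Likeness was the root mean square difference of centred log2 CPM, from 0.072 for Oasl2 to 0.125 for H2-T23. Since the groups set the profile, these are genes with log2 fold changes close to that of S100a6, at -2.70 for Oasl2, -2.54 for Epsti1, -2.45 for Oas3, -2.40 for Lgals9 and -2.61 for H2-T23. Oasl2 had 4.65, 4.31 and 4.79 CPM in knockdown libraries, against 30.5, 29.7 and 29.2 CPM in WT libraries. None of the 5 lies on chromosome 3.

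In the window from 250 kb before S100a1 to 250 kb past S100a9 (chr3:90261034-90945721), 8 genes other than members were tested. Of these, 2 were higher and 1 lower, and the median log2 fold change of the 8 was 0.17. All 8 lay before S100a1, with starts at -358.7 to -103.4 kb from the S100a6 start. No tested gene other than members lay between the members or past S100a9. The share called, 37.5%, was close to the 40.1% of all genes tested. Snapin, a SNARE-associated protein that starts at -121.8 kb from the S100a6 start, had 117.3, 101.4 and 114.4 CPM in knockdown libraries, against 68.5, 87.6 and 78.8 CPM in WT libraries (log2 fold change 0.50, SE 0.10, edgeR adjusted p = 0.00179). Ints3, a subunit of the Integrator complex, was higher as well (0.40, SE 0.09, adjusted p = 0.00349). Crtc2, a coactivator of CREB at the edge of the window, was lower (-0.37, SE 0.08, adjusted p = 0.00441). With library totals in place of TMM, 6 of the 8 were called, 5 higher and 1 lower. In the window around S100a11 and S100a10 (chr3:93270488-93814643), 24 of 29 genes had no count, and the 2 tested were the members themselves.

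**Figure D4:**
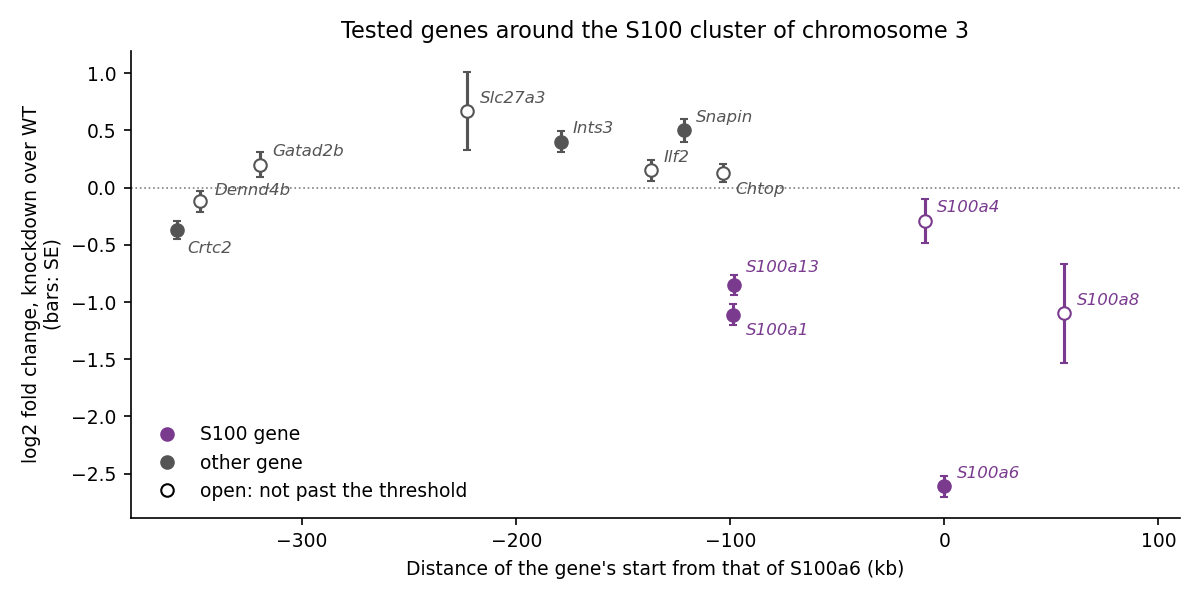
Log2 fold change of SMEK1 knockdown over WT against distance from the S100a6 start on chromosome 3, for tested genes of the window from S100a1 to S100a9 and its flanks (S100a10 and S100a11 lie outside the plot), with SE bars and open points for genes not past the threshold. The plotted S100 genes lie at or below -0.29, while the neighbours lie between -0.37 and 0.67.

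Of 17 further S100 family names, 16 were in the table and 7 had a count. Only S100pbp, an S100P-binding protein gene rather than an S100 gene, was tested, with 28.6 ± 3.1 CPM in knockdown cells and 24.5 ± 1.18 CPM in WT cells (log2 fold change 0.22, SE 0.11, edgeR adjusted p = 0.143), and it was called higher with library totals. S100a3 averaged 0.332 ± 0.228 CPM in knockdown and 0.482 ± 0.246 CPM in WT cells. S100a14 had 11, 0 and 3 counts in knockdown libraries and 1, 0 and 0 in WT libraries. The astrocyte gene S100b had 5, 0 and 5 counts in knockdown libraries and 1 in each WT library. S100a3, S100a14 and S100b were at the edge of detection.

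Annexins, the calcium-dependent membrane-binding partners of several S100 proteins, changed in different directions. Of 12 annexin names 9 were tested, 4 rose and 2 fell, with a median log2 fold change of 0.22 against 0.01 over all genes. That is 44.4% higher and 22.2% lower, where 20.5% and 19.6% of all genes tested were higher and lower. Anxa2, the partner of S100a10, had 489.3, 397.4 and 437.4 CPM in knockdown libraries, against 245.1, 314.8 and 282.1 CPM in WT libraries (log2 fold change 0.65, SE 0.11, edgeR adjusted p = 5.19e-04). All knockdown libraries lay above all WT libraries, opposite to S100a10 in the same libraries. Anxa1, the partner of S100a11, had 49.3, 57.5 and 54.8 CPM in knockdown libraries, against 33.9, 34.4 and 32.1 CPM in WT libraries (0.69, SE 0.09, adjusted p = 1.51e-04).

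Anxa5, the phosphatidylserine-binding annexin, rose to 724.4 ± 59.8 CPM in knockdown cells, against 517.0 ± 53.2 CPM in WT cells (edgeR adjusted p = 0.00212). Anxa7 rose by less (log2 fold change 0.37, adjusted p = 0.0136), a call lost with the replicate letter as a block. The scarce Anxa9 fell to 4.91 ± 0.234 CPM in knockdown cells, against 12.5 ± 0.976 CPM in WT cells (-1.35, SE 0.16, adjusted p = 5.45e-05). Anxa3 was lower by 0.22 on the log2 scale (-0.22, adjusted p = 0.0285), and that call was lost with library totals (-0.06, adjusted p = 0.432), without knockdown replicate B or C and without WT replicate B or C. For Anxa11, a known partner of S100a6, the log2 fold change was -0.29 (SE 0.13) with an adjusted p = 0.0932.

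Of 18 other proteins known to bind S100 proteins inside cells, 14 were tested, 6 fell and 0 rose, with a median log2 fold change of -0.25. The share lower was thus 42.9%, where 19.6% of all genes tested were lower and 40.1% were called in either direction. With library totals only 2 were called, 1 higher and 1 lower, and the median was -0.09. Ezr, encoding ezrin, which links membranes to actin, had 39.3, 38.9 and 35.3 CPM in knockdown libraries, against 123.7, 139.5 and 144.4 CPM in WT libraries. Its log2 fold change of -1.84 (SE 0.09, edgeR adjusted p = 5.89e-08) was called under every alternative. Stub1, a chaperone-linked ubiquitin ligase (-0.35, adjusted p = 0.0073), Trp53, encoding p53 (-0.32, adjusted p = 0.0101), and Ahnak, the scaffold bound by S100a10 with annexin A2 (-0.42, adjusted p = 0.0187), fell by less. Fkbp4 (-0.26, adjusted p = 0.0266) and Myh9, the non-muscle myosin chain bound by S100a4 (-0.23, adjusted p = 0.0374), also fell. The calls of these 5 genes were lost with library totals. Leaving out 1 library also ended the call of Trp53 (knockdown C), Ahnak (knockdown A, WT A or WT C), Fkbp4 (replicate B or C of either group) and Myh9 (any library but WT B). Of the list, 3 genes were called without knockdown replicate C or without WT replicate C. Cacybp, the S100a6 partner, averaged 35.2 ± 8.45 CPM in knockdown cells and 31.6 ± 4.68 CPM in WT cells (0.16, SE 0.17, adjusted p = 0.481).

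Among 11 receptors and sensors of extracellular S100 proteins, 8 were tested, 1 rose and 2 fell, with a median log2 fold change of 0.26. The share called, 37.5%, was close to the 40.1% of all genes tested. Cd36, a scavenger receptor, had 36.6, 69.6 and 52.6 CPM in knockdown libraries, against 9.88, 4.3 and 6.77 CPM in WT libraries (log2 fold change 2.92, SE 0.28, edgeR adjusted p = 9.97e-06). It was higher in all 3 knockdown libraries, by an amount that varied between them. Cd14, a co-receptor of TLR4, fell by 0.29 on the log2 scale (adjusted p = 0.0106), but was not called with library totals or with the replicate letter as a block. Tlr4 had 2.87, 6.22 and 4.74 CPM in knockdown libraries, against 9.93, 6.21 and 7.3 CPM in WT libraries, which overlap. Its log2 fold change of -0.75 (SE 0.27, adjusted p = 0.0437) was lost in 11 alternatives, among them leaving out replicate A or C of either group. Ager, encoding RAGE, averaged 0.371 ± 0.119 CPM in knockdown and 0.193 ± 0.152 CPM in WT cells and was not tested, and for Bsg, which S100a9 binds, the log2 fold change was -0.10 (adjusted p = 0.422). With library totals 3 of the 8 were called, all higher.

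Of 48 other EF-hand names 38 were tested, 7 rose and 10 fell, with a median log2 fold change of 0.02. The share called, 44.7% (18.4% higher and 26.3% lower), was close to that of all genes tested (40.1%, with 20.5% higher and 19.6% lower). Rcn1, a calcium-binding protein of the endoplasmic reticulum, rose to 32.2 ± 1.93 CPM in knockdown cells, against 12.1 ± 0.322 CPM in WT cells (1.41, SE 0.11, edgeR adjusted p = 2.62e-06). Sri (0.38), Calu (0.37) and Cib1 (0.35) rose as well, although Calu lost its call without WT replicate C, and Cib1 without replicate C of either group.

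Ehd1, a membrane-recycling ATPase, fell to 80.4 ± 7.32 CPM in knockdown cells, against 144.6 ± 4.46 CPM in WT cells (-0.85, SE 0.08, edgeR adjusted p = 1.45e-05). The calpain genes Capn1 (-0.81, SE 0.10) and Capn2 (-0.59, SE 0.13), the endocytic adaptor Eps15 (-0.93, SE 0.16) and the actin-binding genes Actn4 (-0.39, SE 0.08) and Lcp1 (-0.45, SE 0.11) fell with it, of which Lcp1 lost its call with library totals. Aif1, which encodes the microglial marker IBA1 and is itself an EF-hand gene, averaged 5.49 ± 0.773 CPM in knockdown cells and 6.66 ± 2.06 CPM in WT cells (-0.27, SE 0.24, adjusted p = 0.396). Without WT replicate C, 11 EF-hand genes were called. With library totals the split was 12 higher and 5 lower.

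**Figure D5:**
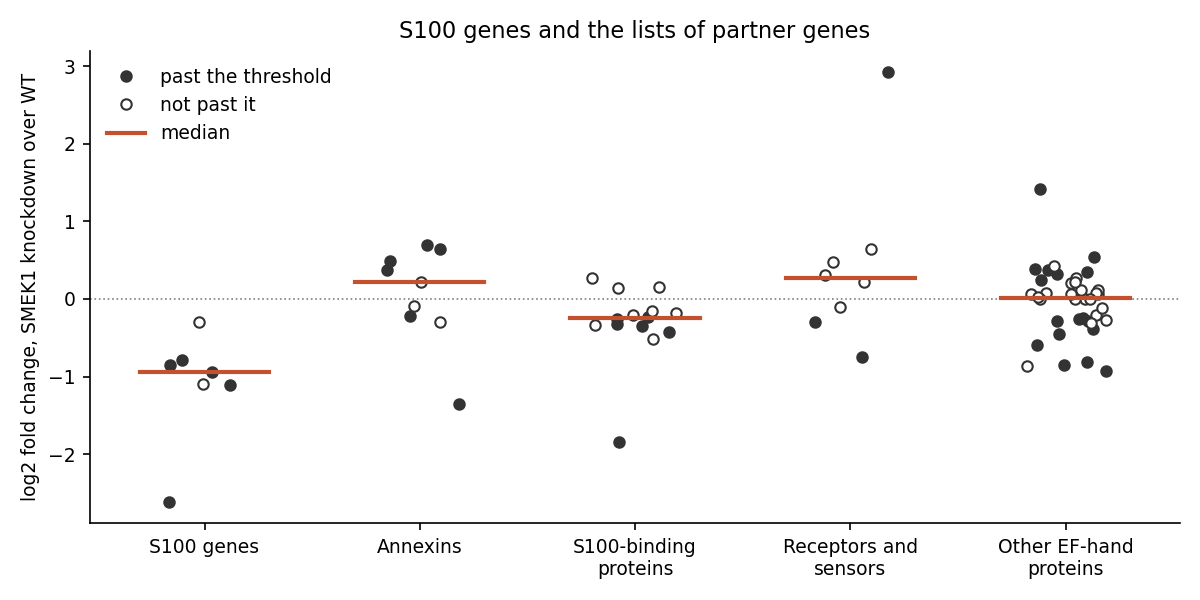
Log2 fold change of SMEK1 knockdown over WT for each tested gene of the S100 members, annexins, S100-binding proteins, receptors and other EF-hand genes; filled points passed an adjusted p of 0.05. All tested S100 members lie below 0, while annexins, S100-binding proteins, receptors and EF-hand genes lie on either side of it.

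Markers of other cell types were low throughout. Astrocyte markers summed to 0.452 to 0.836 CPM in knockdown and 0.27 to 0.537 CPM in WT libraries, with Aldh1l1, Aqp4 and Gja1 at 0. Neuron markers summed to 0.889 to 1.81 CPM in knockdown and 0.716 to 1.08 CPM in WT libraries. Tubb3 was the 1 tested and higher gene (log2 fold change 1.14, edgeR adjusted p = 0.0449). Slc17a7 went the other way, with 0, 2 and 0 counts in knockdown and 8, 5 and 4 in WT libraries. Rbfox3 had 1 count in knockdown and 3 in WT libraries, and Gad1, Map2, Snap25 and Syt1 were at 0. Oligodendrocyte markers summed to 7.15 to 7.26 CPM in knockdown and 2.53 to 2.81 CPM in WT libraries, with Mbp the 1 tested and higher gene. The oligodendrocyte sum was higher in every knockdown library, and the part of these markers in the S100 values was not tested. Fibroblast markers reached at most 0.178 CPM in a knockdown and 0.054 CPM in a WT library, and endothelial markers summed to 0.267 to 0.47 CPM in knockdown and 0.239 to 0.648 CPM in WT libraries. In bulk RNA, fewer cells with a transcript and less of it per cell cannot be told apart.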

How the data were processed

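Per the labels' protocols, column-purified total RNA was made into libraries with a SMARTER mRNA kit. The build was GRCm38 (mm10), per the submitters' processing notes. The aligner, counter, annotation release and strand setting are not stated in the sources used here. The authors deposited whole-number counts per gene. The authors also deposited FPKM, in which each library's constant was 1.0224 to 1.1221 times the total count in knockdown libraries and 0.9105 to 0.9909 times in WT libraries.

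Counts were tested with edgeR 4.0.16 (R 4.3.3) on all 6 libraries: filterByExpr, TMM, glmQLFit and glmQLFTest without covariates, and Benjamini-Hochberg adjustment over the 12269 genes tested, with calls at an adjusted p under 0.05. Each SE is the size of the fold change over the square root of F. The biological coefficient of variation was 0.121. Genes were named by a rule: all members, the called genes of each list with the smallest adjusted p (up to 6 a direction), a fixed panel, and the 5 profiles most like S100a6. Some genes that the rule names are not reported here. The members, lists and rule were chosen with earlier results of these data known. Scripts were tested on simulated data. The replicate letters did not pair the samples. Alternatives used DESeq2 1.42.0, limma 3.58.1, other scalings and filters, log2(FPKM + 1) and log2(FPKM + 0.1), and left out each library. Promoters came from RefSeq, and transcripts from GENCODE.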

Additional observations from a re-analysis of the deposited data

How the results depend on the processing

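As a description only, since the family was chosen on this contrast, the log2 fold changes over 18 alternatives were -2.65 to -2.45 for S100a6, -1.16 to -0.95 for S100a1, -1.02 to -0.78 for S100a11, -0.91 to -0.69 for S100a13 and -0.84 to -0.62 for S100a10, all past the threshold. S100a4 (-0.35 to -0.14) passed in 2 of 18 and S100a8 (-1.55 to -0.61) in 4 of 17, among them without knockdown replicate A (-1.55). Library totals in place of TMM moved the median of all genes by 0.159 on the log2 scale, to 0.17, and 71.3% of the 5461 calls were then higher, against 51.1% of 4918 with TMM. Called genes then numbered 2 of the S100-binding proteins, 1 of the further S100 family names (S100pbp, which is no S100 gene) and 6 of the chromosome 3 neighbours. Without a filter, limma on log2(FPKM + 1) called 3 S100-binding proteins and 11 EF-hand genes. At an adjusted p under 0.01, 3181 genes, 2 S100-binding proteins, 1 receptor and 10 EF-hand genes were called. Leaving out 1 library gave 5 to 6 members, 5 to 7 annexins, 3 to 5 S100-binding proteins, 2 to 3 receptors, 11 to 17 EF-hand genes, 3 neighbours, 0 further S100 family names and 3703 to 4870 genes in all, with Ppp4r3a at -2.18 to -1.69. Ppp4r3a was at -0.74 on the log2(FPKM + 1) scale, which understates the change of low genes. Of the further S100 family names, of which only S100pbp was tested, 0 were at an unadjusted edgeR p under 0.05 with TMM. The cause of these shifts was not tested.

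The replicate letters did not pair the samples: the correlation of deviations between same-letter libraries was -0.361 for A, -0.326 for B and 0.002 for C. As a replicate block they left 3326 calls over all genes, 5 members, 4 annexins, 2 S100-binding proteins, 1 receptor and 11 EF-hand genes, and Ppp4r3a was at -1.98. No library correlated best with the library of its own letter.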
